A study of Mus musculus with 7 samples.

Results

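Brain endothelial cells of the mouse cortex were described at postnatal day 30 in mice with and without ablation of intrinsically photosensitive retinal ganglion cells (ipRGCs), the melanopsin-bearing neurons that carry light signals from the retina to the brain. A cell was taken as endothelial where it held at least 1 unique molecular identifier (UMI, a tag that counts each captured transcript once) of Cldn5 and at least 3 of the 5 genes Cldn5, Ly6c1, Flt1, Itm2a and Slco1a4. Cells with more than 1 Slc17a7 UMI, at least 2 C1qa UMIs or at least 3 Gja1 UMIs were left out, to limit mixtures with excitatory neurons, microglia and astrocytes. Cells with at least 2 UMIs in 2 or more of the mural cell genes Rgs5, Vtn, Kcnj8 and Acta2 were left out as well. The rule found 1832 endothelial cells among 32985 cells, or 5.55%, and they held 5338609 UMIs.

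The ablated mice carried Opn4-Cre/+ together with Brn3b-zDTA/+, an allele that places a diphtheria toxin A chain under the Brn3b locus so that Cre and Brn3b expression in the same cell start it, and they are called DTA. The control mice carried Opn4-Cre/+ with Brn3b-+/+ and are called CTRL, so that both groups had the Cre allele in place of 1 copy of melanopsin. The Brn3b-negative ipRGCs, which serve the suprachiasmatic clock, are known to be spared by this cross. All mice were of the strain B6129SF1/J. Ventromedial prefrontal cortex (PFC) gave 3 DTA and 2 CTRL libraries, and motor cortex (MC) gave 1 DTA and 1 CTRL library. The labels do not say how many animals stand behind a library or whether libraries came from separate animals, so the p-values measure only the spread between libraries, which may be technical.

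Endothelial cells line every vessel of the brain, and here they form the blood-brain barrier: tight junctions close the gaps between them, efflux pumps return drugs to the blood, and solute carriers bring in glucose, amino acids and lipids. Wnt ligands from neighbouring brain cells acting on beta-catenin keep this programme in place. Along the vessel tree, arterial, capillary and venous endothelial cells express partly different genes.

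Promoters are shown for 3 of the genes that chose the cells and for 2 genes of red blood cells that the results below turn on. Each run is the 250 bases before the RefSeq start site on GRCm38.p6, on the strand of its gene. The windows are chr16:18776597-18776846 on the plus strand for Cldn5, chr5:147726012-147726261 on the minus strand for Flt1, and chr6:141856221-141856470 on the minus strand for Slco1a4. They are chr7:103827929-103828178 on the minus strand for Hbb-bs and chrX:150547167-150547416 on the plus strand for Alas2. Capitals mark AGGAAG or its reverse complement CTTCCT, a core of ETS-family sites, in the endothelial genes. In the red cell genes they mark AGATAA or TTATCT, of the GATA type, CCACACCC or GGGTGTGG, of the CACCC type, and ATAAAA or TTTTAT, of the TATA type.
Cldn5: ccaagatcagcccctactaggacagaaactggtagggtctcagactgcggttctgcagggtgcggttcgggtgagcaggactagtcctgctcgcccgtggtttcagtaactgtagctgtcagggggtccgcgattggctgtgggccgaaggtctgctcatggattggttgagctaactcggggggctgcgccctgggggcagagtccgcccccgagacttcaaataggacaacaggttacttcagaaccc
Flt1: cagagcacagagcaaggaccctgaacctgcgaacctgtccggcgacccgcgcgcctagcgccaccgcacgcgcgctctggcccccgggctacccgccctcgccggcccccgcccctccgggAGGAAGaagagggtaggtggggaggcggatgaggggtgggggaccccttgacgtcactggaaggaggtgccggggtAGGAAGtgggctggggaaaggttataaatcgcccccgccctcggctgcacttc
Slco1a4: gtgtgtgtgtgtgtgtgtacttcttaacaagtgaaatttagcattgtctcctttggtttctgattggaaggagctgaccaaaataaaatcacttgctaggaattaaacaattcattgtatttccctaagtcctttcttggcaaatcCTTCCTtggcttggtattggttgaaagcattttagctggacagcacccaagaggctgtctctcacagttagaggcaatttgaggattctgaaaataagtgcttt
Hbb-bs: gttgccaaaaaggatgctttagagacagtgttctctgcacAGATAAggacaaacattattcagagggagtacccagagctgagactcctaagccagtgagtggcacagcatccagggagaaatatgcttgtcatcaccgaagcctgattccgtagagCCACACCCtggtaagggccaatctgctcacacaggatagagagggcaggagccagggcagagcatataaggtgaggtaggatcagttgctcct
Alas2: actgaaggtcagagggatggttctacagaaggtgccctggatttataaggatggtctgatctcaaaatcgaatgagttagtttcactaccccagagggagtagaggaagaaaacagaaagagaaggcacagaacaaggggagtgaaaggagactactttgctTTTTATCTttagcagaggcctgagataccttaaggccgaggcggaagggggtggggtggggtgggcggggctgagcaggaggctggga
The Flt1 window held AGGAAG at 129 and at 53 bases before the start, the Slco1a4 window held CTTCCT at 104, and the Cldn5 window held none of the 4 motifs. Slco1a4 also had ATAAAA at 168 bases and Alas2 had AGGAAG at 147 bases, both left in lower case. The Hbb-bs window held AGATAA at 210 and CCACACCC at 93 bases. In Alas2, TTATCT at 86 bases overlapped TTTTAT at 88. Of all 32851 promoter windows of this length, 29.5% held the ETS-type motif on either strand, 9.99% the GATA type, 3.2% the CACCC type and 17% the TATA type. These matches are a description of letters only. RefSeq windows were found for 4 of the 5 rule genes. The window of the fourth, Itm2a, is not printed: it held CTTCCT at 247 and 243 bases and the GATA-type TTATCT at 228. The window of the haemoglobin gene Hba-a1, also not printed, held none of the 4 motifs as spelled above. Other spellings of these site types were not searched in any window.

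The libraries differed in depth and in stray RNA before any comparison. They held 6180059 to 30972905 UMIs. In each library the cell with the fewest genes held 501 to 503, so cells below that are absent from every share given here. Endothelial cells had a median of 1362.5, 3046.5 and 2906.5 UMIs in the PFC DTA libraries, 1995 and 1342 in PFC CTRL, 4050 in MC DTA and 1424.5 in MC CTRL. Pairs of libraries shared 7 to 92 cell barcodes, at most 1.498% of the smaller library. Excitatory neuron genes summed to 443–697 CPM (counts of a gene per 1000000 UMIs of the cell set, haemoglobin included) in the endothelial cells of PFC DTA, 309 and 1430 in PFC CTRL 1 and 2, 404 in MC DTA and 1640 in MC CTRL, against 5418–8632 in all other cells. PFC CTRL 2 and MC CTRL thus carried the most neuronal RNA. Astrocyte genes summed to 877–1401 CPM in PFC DTA, 781–1580 in PFC CTRL and 769–1185 in MC, against 2275–4224 in all other cells, so RNA of other cell types was left after the exclusions. Oligodendrocyte lineage genes summed to 76.4–1253 CPM in PFC DTA, 386–684 in PFC CTRL and 678–1450 in MC, against 1863–9565 in all other cells. Pericyte genes summed to 22.6–170 CPM in PFC DTA and 80.1–97.6 in PFC CTRL, smooth muscle genes to 7.53–31.8 and 8.30–11.4, and microglial genes to 63.0–82.3 and 76.8–86.5. Red blood cell genes were far higher, at 67375–185210 CPM in PFC DTA, 44064–78707 in PFC CTRL and 58474–73543 in MC, against 370–1963 in all other cells.

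The genes that chose the cells separated them clearly, as they had to. Cldn5 (chromosome 16, 18776847 to 18778262, plus strand), the main claudin of brain endothelial tight junctions, stood at 7816, 6927 and 4246 CPM in PFC DTA, 6114 and 5905 in PFC CTRL, 6561 in MC DTA and 4865 in MC CTRL. In all other cells it stood at 15.8–40.0 CPM. Ly6c1, a surface protein of small-vessel endothelium, ranged over 3031–4435 CPM against 15.6–24.2 elsewhere, and Itm2a over 3171–5549 against 23.5–42.6. Flt1, a receptor that binds VEGF, was seen in 81.7–97.7% of endothelial cells and 1.001–3.31% of all other cells. Slco1a4, an organic anion carrier of the luminal membrane, was seen in 83.9–95.7% against 0.814–2.03%, and the other cells were the deeper ones in 5 of 7 libraries.

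All 5 genes were present in 1475 of the cells, 4 in 279 and 3 in 78. Just outside the rule lay 45 cells with Cldn5 and 1 further gene. In PFC CTRL 2, the 32 cells with 3 genes held 14 Pecam1 and 34 Ly6a UMIs in 39013 UMIs. The 16 cells with 2 genes in the same library held 3 Pecam1 and 7 Ly6a UMIs in 31097. The exclusions took 89 cells for Slc17a7, 56 for mural genes, 37 for Gja1 and 20 for C1qa, some of them on more than 1 count.

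The label held against markers that the rule did not name. Pecam1, the platelet endothelial adhesion molecule, averaged 528 ± 70.2 CPM in endothelial cells and 4.39 ± 1.05 CPM in all other cells of the same libraries (SD, n = 7 each). Cdh5, the endothelial cadherin, averaged 291 ± 47.1 CPM against 2.003 ± 0.652. Both were at 0 UMIs in 524 cells marked as pericytes, the contractile cells wrapped round capillaries, which were chosen by at least 2 of Rgs5, Vtn and Kcnj8 at 2 or more UMIs and no Cldn5. Of 25 pan-endothelial genes, 24 were higher in every endothelial sum than in any sum of the other cells. Non-overlap in that direction held for 15.4% of all 13623 genes tested, and for 37.2% in the other direction. Since the same cells and contrast chose the members, these counts and the group levels in the next paragraphs are descriptions with no test.

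**Figure D1:**
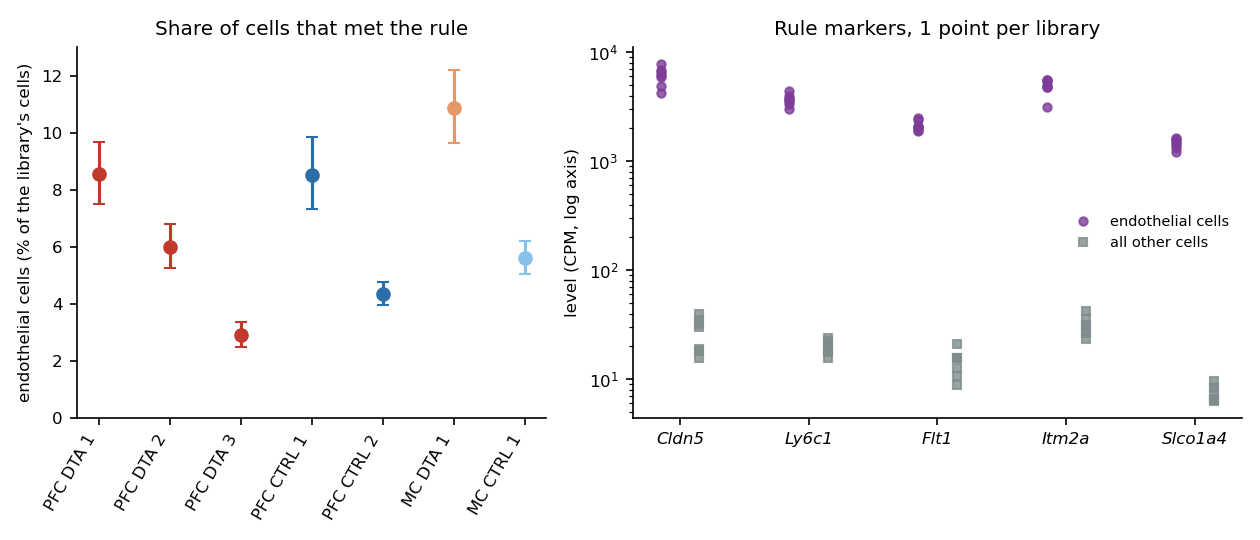
Endothelial share of the cells in each library, in percent with exact 95% binomial intervals, and levels of the 5 rule genes in CPM on a log axis, with endothelial cells as circles and all other cells as squares. The share ran from 2.90% in PFC DTA 3 to 10.9% in MC DTA, and Cldn5 lay at 4246 CPM or more in each endothelial sum.

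Endothelial cells made up 8.54%, 5.99% and 2.90% of the cells in the PFC DTA libraries, against 8.52% and 4.34% in PFC CTRL. The groups overlapped, with PFC DTA 3 lowest and PFC DTA 1 and PFC CTRL 1 alike at the top. The share averaged 5.81% ± 2.83 in PFC DTA (SD, n = 3) and 6.43% ± 2.96 in PFC CTRL (SD, n = 2). The difference of -0.623 percentage points gave p = 0.8 in an exact two-sided permutation test, where 0.1 is the smallest p possible. It changed sign to 0.651 points among cells with at least 1000 UMIs, to 1.47 without PFC CTRL 1 and to 0.832 without PFC DTA 3. The share was 10.9% in MC DTA and 5.59% in MC CTRL, 1 library each.

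Transport genes filled much of the endothelial profile. All 21 measured solute carriers of the barrier list were higher in every endothelial sum than in any sum of the other cells, and 19 of 20 stood above every pericyte-marked sum, where 9.81% of 7241 genes lay above and 7.36% below. Slc2a1, the glucose transporter GLUT-1 (chromosome 4, 119108711 to 119137983, plus strand), stood at 1157, 1655 and 1021 CPM in PFC DTA, 2562 and 1576 in PFC CTRL, 1691 in MC DTA and 1578 in MC CTRL. It averaged 28.9 ± 3.69 CPM in all other cells and 20.7 ± 21.0 CPM in pericyte-marked cells. PFC CTRL 1 was the high library and PFC DTA 3 the low one.

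Slco1c1, which carries thyroxine, averaged 931 ± 146 CPM in endothelial cells against 23.3 ± 4.13 in all other cells. The large neutral amino acid carrier Slc7a5 averaged 834 ± 286 CPM against 23.7 ± 6.11, and the cationic amino acid carrier Slc7a1 averaged 996.5 ± 274 against 27.2 ± 5.33 (SD, n = 7 each). Slc7a5 was the more variable of these, with 395, 1142 and 682 CPM in PFC DTA, 592 and 982 in PFC CTRL, 1141 in MC DTA and 905 in MC CTRL. Mfsd2a, the lysophospholipid carrier that also holds back transcytosis, stood at 329, 453 and 121 CPM in PFC DTA, 409 and 378 in PFC CTRL, 439 in MC DTA and 286 in MC CTRL. PFC DTA 3 lay far under the other 6 libraries for Mfsd2a and was also lowest for Slc7a1, at 492 CPM.

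The efflux pumps split by gene. Abcb1a, the mouse P-glycoprotein of the barrier, stood at 462, 544 and 499 CPM in PFC DTA, 494 and 356 in PFC CTRL, 570 in MC DTA and 457 in MC CTRL, against 3.06 CPM on average in all other cells. Its paralog Abcb1b averaged 0.746 CPM in endothelial cells and 3.04 CPM in all other cells, and it was at 0 in 3 of the 7 endothelial sums. Abcg2, the breast cancer resistance protein, was the steadiest, at 558 ± 33.8 CPM in endothelial cells, 27.5 ± 27.8 in pericyte-marked cells and 14.3 ± 1.78 in all other cells. Abcc4 averaged 78.0 CPM against 2.79, while Abcc5 ran the other way, at 20.8 against 79.6 CPM. Of 9 pumps, 5 lay above and 3 below every sum of the other cells.

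Junction genes showed the same split between partners. Ocln, which encodes occludin, averaged 258 ± 32.8 CPM in endothelial cells and 1.88 ± 0.228 in all other cells, and Lsr, the receptor that builds angulin junctions, averaged 434 ± 57.0 against 2.68 ± 0.713. Cldn12 was lower in endothelial cells, at 7.69 ± 2.81 CPM against 26.6 ± 2.99, and Jam3 averaged 15.9 ± 7.67 against 99.6 ± 22.2. In all, 15 of 18 junction genes lay above and 2 below every sum of the other cells. Of the receptors used in receptor-mediated transport, Tfrc, the transferrin receptor, averaged 261 ± 27.7 CPM against 59.8 ± 19.1, while Lrp1 averaged 11.9 ± 10.4 against 103 ± 9.65. Plvap, which forms the diaphragms of leaky vessels, averaged 6.63 ± 4.64 CPM in endothelial cells and 49.9 ± 11.3 in all other cells. Plvap was seen in 0.388–3.88% of endothelial cells.

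**Figure D2:**
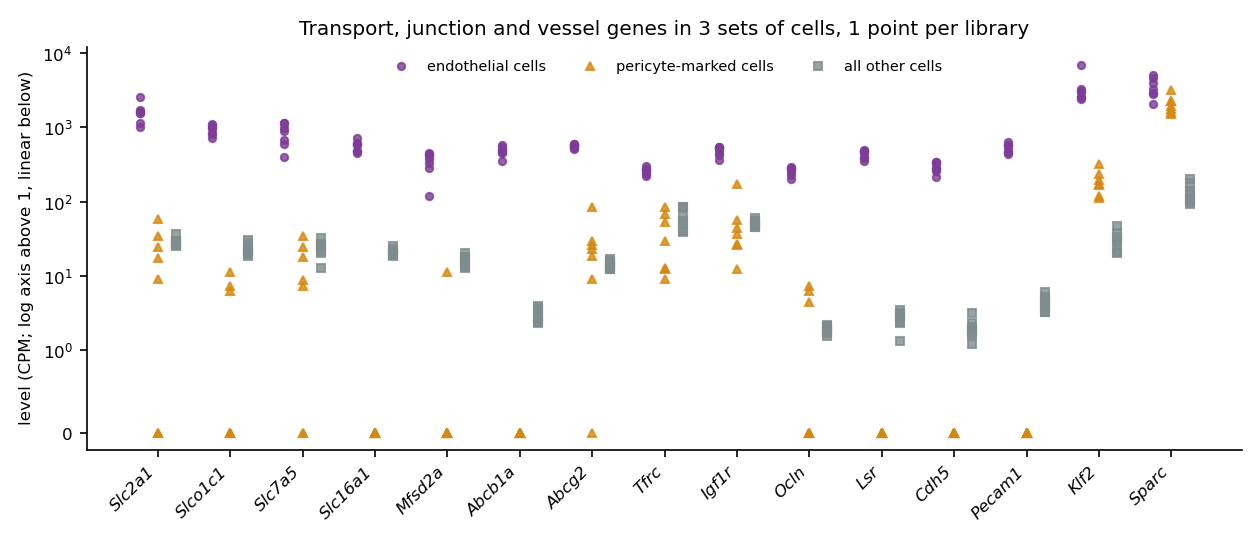
Levels of 15 barrier genes in CPM in endothelial cells, pericyte-marked cells and all other cells, 1 point per library, on an axis that is logarithmic above 1 and linear below. The endothelial points lie above both other sets for each gene but Sparc, where the endothelial and pericyte-marked ranges overlap.

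Regulators downstream of Wnt were present in every library. All 20 measured Wnt genes lay above every sum of the other cells, and 11 of 19 lay above every pericyte-marked sum. Lef1, a nuclear partner of beta-catenin, averaged 209 ± 29.7 CPM in endothelial cells, 15.2 ± 13.8 in pericyte-marked cells and 2.15 ± 0.503 in all other cells. Foxq1, a forkhead factor of brain endothelium, ran from 444 CPM in MC CTRL to 610.1 in PFC DTA 2, against 28.9 ± 27.2 in pericyte-marked cells. Sox17, which is active in arterial fate, ran from 297 to 499 CPM and was at 0 in pericyte-marked cells.

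Matrix and mural genes showed where endothelial cells and pericytes part. Of 15 basement membrane genes, 14 lay above the other cells, but only 3 lay above and 3 below every pericyte-marked sum. Sparc, a collagen-binding matrix protein, averaged 3516 ± 1052 CPM in endothelial cells and 2073 ± 576 in pericyte-marked cells, and Fn1, fibronectin, averaged 618 against 16.7. Nid1, nidogen, ran the other way, at 55.6 CPM in endothelial and 213 in pericyte-marked cells. Ifitm3, an interferon-induced restriction factor, averaged 1123 against 858 CPM, whereas Ifitm1 averaged 1.87 CPM in endothelial cells and 1047 in pericyte-marked cells. Reads of such similar neighbouring genes could be misplaced between them.

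Class I antigen presentation and interferon genes stood high in endothelial cells. Of 12 class I genes, 11 lay above the other cells, as did 22 of 27 interferon genes, with 1 below. H2-D1, a class I heavy chain, averaged 684 ± 177 CPM in endothelial cells and 45.3 ± 12.1 in all other cells, and Isg15, a ubiquitin-like interferon product, averaged 170 ± 35.3 against 3.82 ± 1.20. Of 18 clock genes, 9 lay below and 2 above the other cells, where 37.2% of all genes lay below and 15.4% above. The clock output factors Hlf and Dbp averaged 16.5 and 75.3 CPM in endothelial cells, against 123 and 97.7 CPM in all other cells. Per1, a core clock repressor, ran over 39.8–102 CPM in endothelial cells and 39.2–77.2 in all other cells, and the ranges overlapped.

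A class of arterial-marked cells was set against venous-marked cells to ask how the endothelium varies along the vessel tree. Arterial-marked cells held at least 2 UMIs over Bmx, Gkn3, Sema3g, Vegfc, Fbln5, Hey1, Gja5, Cytl1 and Efnb2 and none over 7 venous genes, of which Slc38a5, Tmem252 and Icam1 gave most of the UMIs. Venous-marked cells were chosen the other way round, and since Slc38a5 is also known from capillaries, that class may reach beyond veins. The rule gave 98 arterial-marked and 443 venous-marked cells, while 423 cells held UMIs of both lists. The classes were compared within the 5 libraries that had at least 10 cells of each, with the library as a block, and the genes of both marker lists have no test.

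Large-vessel genes were higher and nutrient carriers lower in arterial-marked cells. Of 2863 genes tested in edgeR's quasi-likelihood fit, 172 passed an adjusted p of 0.05, or 6.01%: 76 were higher (2.65%) and 96 lower (3.35%) in arterial-marked cells. The large vessel list had 9 of 12 genes higher and none lower, with a median log2 fold change of 1.68. The solute carrier list had 6 of 18 lower and 1 higher, the adaptor Slc9a3r2, with a median of -0.51. No junction gene of 10 and no efflux pump of 3 passed.

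Mgp, matrix Gla protein, which hinders calcification of artery walls (chromosome 6, 136872435 to 136875823, minus strand), stood at 972, 518, 138, 1507 and 1117 CPM in arterial-marked cells of PFC DTA 2, PFC DTA 3, PFC CTRL 2, MC DTA and MC CTRL. In venous-marked cells of the same libraries it stood at 3.12, 0, 0, 4.54 and 6.07 CPM. Every arterial-marked sum lay above every venous-marked one, and the log2 fold change was 7.90 ± 0.33 (SE; edgeR adjusted p = 2.4e-40). Mgp also averaged 1501 CPM in pericyte-marked cells. Smooth muscle genes together held 1 UMI in the arterial-marked cells, and the pericyte list held 25 UMIs there, 24 of them Rgs5. The rule had already left out cells with 2 or more mural genes at 2 UMIs. Rgs5 stood at 0, 518, 23.1, 16.0 and 74.5 CPM in arterial-marked cells, in the same order of libraries. The part of mural RNA in the Mgp values was not tested.

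Tm4sf1, a small membrane protein of angiogenic endothelium, stood at 1428, 1113, 1592, 1443 and 1080 CPM in arterial-marked cells and at 364, 412, 306, 352 and 394 CPM in venous-marked cells, in the same order of libraries. It was the most even of the large-vessel genes, at 1.76 ± 0.13 on the log2 scale (edgeR adjusted p = 1.4e-20). Edn1, the vasoconstrictor endothelin 1, stood at 1150, 155, 439, 1347 and 484 CPM against 352, 109, 148, 304 and 152, higher in 5 of 5 libraries though the ranges overlapped (log2 1.59 ± 0.18; edgeR adjusted p = 2.1e-11). Alpl, tissue-nonspecific alkaline phosphatase, ran over 69.2–176 CPM against 0–15.3. Eln, elastin, averaged 165 CPM against 7.03, and Unc5b, a netrin receptor of arteries, averaged 221 CPM against 24.0.

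Igfbp3, an insulin-like growth factor binding protein, averaged 126 CPM in arterial-marked and 1.67 CPM in venous-marked cells (log2 5.84 ± 0.74; edgeR adjusted p = 1.1e-09). Egfl8, a secreted EGF-like protein, averaged 212 CPM against 22.0, and the homeobox factor Msx1 averaged 117 against 12.4. Ifitm3 was higher as well, with 1612 CPM against 876 on average (log2 0.78 ± 0.12; edgeR adjusted p = 6.0e-07). Kdr, the main VEGF receptor, was lower, with 347 CPM against 581.

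Car4, a membrane-bound carbonic anhydrase of capillaries (chromosome 11, 84957786 to 84966044, plus strand), stood at 139, 440, 231, 208 and 37.2 CPM in arterial-marked cells, against 1850, 1277, 1701, 1976 and 1887 CPM in venous-marked cells. The classes lay far apart in each library, at -3.13 ± 0.29 on the log2 scale (edgeR adjusted p = 7.4e-05). Slc16a1, the monocarboxylate transporter for lactate and ketone bodies, stood at 416, 233, 231, 224 and 186 CPM against 960, 575, 565, 786 and 522 (log2 -1.56 ± 0.19; edgeR adjusted p = 2.5e-10). Slc7a1 was lower in 5 of 5 libraries too, at -1.15 ± 0.13 (edgeR adjusted p = 5.9e-11), as was Slc22a8, an organic anion transporter, at -1.14 ± 0.20. The transferrin receptor Tfrc stood at 178, 25.9, 139, 208 and 37.2 CPM against 315, 286, 321, 309 and 352. Tfrc lay lower in every arterial-marked sum than in any venous-marked one (log2 -1.37 ± 0.27; edgeR adjusted p = 9.8e-05). In the 13 arterial-marked cells of MC CTRL, 37.2 CPM is 1 UMI. The Car4 and Tfrc values there are thus at the floor, and the low Tfrc value in PFC DTA 3 rests on 10 cells.

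Oligodendrocyte lineage genes moved with the split: their list summed to 51.8–277 CPM in arterial-marked cells and 88.6–3640 CPM in venous-marked cells of the 5 libraries. Astrocyte genes summed to 912–2100 CPM against 547–1248, excitatory neuron genes to 593–1415 against 352–1341, and red cell genes to 258–191400 against 29857–207960. Median depth was lower in arterial-marked cells in each library, at 1476–3265.5 UMIs against 2098–4684.5. The part of other cells' RNA and of depth in these differences was not tested. The count of 172 genes fell to 90 without MC DTA, to 100 without PFC DTA 2 and to 103 without PFC CTRL 2, and it was 83 in DESeq2, 67 in cells with no UMI of the excluded neuronal, microglial and astrocyte genes and no mural gene at 2 UMIs (strict membership), and 415 with no filter on low counts. The calls for Mgp, Tm4sf1, Edn1, Alpl, Eln, Unc5b, Igfbp3, Egfl8, Msx1, Car4, Slc16a1, Slc7a1 and Slc22a8 held under each alternative run, whereas those for Tfrc, Ifitm3 and Kdr were each lost under 1.

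**Figure D3:**
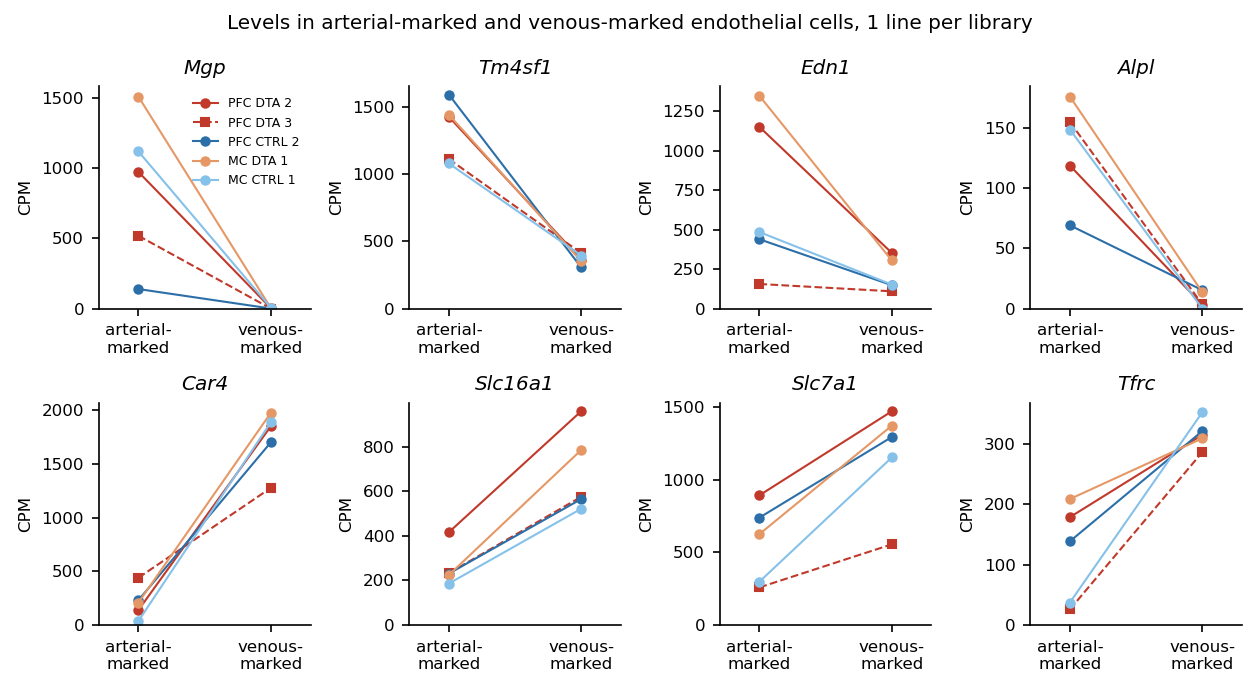
Levels in CPM of 8 genes in arterial-marked cells, on the left, and venous-marked cells, on the right, with 1 line per library and PFC DTA 3 dashed with squares. Mgp, Tm4sf1, Edn1 and Alpl fall and Car4, Slc16a1, Slc7a1 and Tfrc climb from left to right in each of the 5 libraries.

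The shares of the 2 classes were read first at the depth found and then at a fixed depth. The 2 readings also differ in the cells kept and in the UMIs required, and the part of each was not tested. Arterial-marked cells were 4.02%, 7.76% and 5.68% of endothelial cells in PFC DTA, 2.42% and 5.36% in PFC CTRL, 8.14% in MC DTA and 3.74% in MC CTRL. Venous-marked cells were 19.6%, 30.6% and 29.5% in PFC DTA, 40.0% and 17.9% in PFC CTRL, 31.0% in MC DTA and 15.2% in MC CTRL. Each cell was then thinned to 1000 UMIs, which left out 69, 19 and 12 shallower cells in PFC DTA, 24 and 119 in PFC CTRL, 14 in MC DTA and 83 in MC CTRL, and 1 UMI of a list with none of the other sufficed. On that basis the share on the arterial list was 10.3–13.1% in PFC DTA, 10.6% and 12.6% in PFC CTRL, 12.7% in MC DTA and 13.6% in MC CTRL. The share on the venous list was 34.8–36.2% in PFC DTA, 51.8% and 37.1% in PFC CTRL, 38.9% in MC DTA and 35.1% in MC CTRL. It is not a share of veins, since that list may reach into capillaries, as said above. In the venous-marked cells of the 5 libraries compared, Nr2f2 gave 73 and Ackr1 gave 11 of the 1742 UMIs of the list. After thinning, only PFC CTRL 1 stood apart, with a high share on the venous list.

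The comparison of PFC DTA with PFC CTRL asks whether losing ipRGC input changes endothelial expression. No gene of 8205 passed an adjusted p of 0.05 in edgeR's quasi-likelihood fit (0%), and none did in DESeq2. At an unadjusted p under 0.05, edgeR held 123 genes, or 1.5%, and DESeq2 held 31. The 3 DTA values lay above both CTRL values for 3.61% of genes and below both for 11.1%, as read on CPM, whose total includes the red cell counts given above for DTA and CTRL. On counts simulated for these libraries the fit found 99 of 100 planted 4-fold changes but only 36 of 100 planted 2-fold changes. Changes were planted only in genes above a minimum expected count, and every gene was given the same spread. The simulation thus does not cover genes of lower count or of larger spread. Without PFC CTRL 1, 166 genes passed (25 higher and 141 lower in DTA), with 1 CTRL library left that is assumed to vary like the others, and 3 passed without PFC CTRL 2 or with no filter on low counts.

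Class I genes lay mostly on the higher side in DTA. H2-Q4, a non-classical class I chain (chromosome 17, 35379617 to 35385290, plus strand), stood at 21.2, 56.0 and 35.4 CPM in PFC DTA, against 10.4 and 10.2 CPM in PFC CTRL. The endothelial sums held 376801, 929396 and 762226 UMIs in PFC DTA and 481670 and 786263 in PFC CTRL. The H2-Q4 values in PFC DTA 1 and in both PFC CTRL libraries thus stand for few UMIs. B2m, the light chain that all class I molecules share, stood at 1558, 1112 and 947 CPM in PFC DTA, against 809.7 and 687 in PFC CTRL. H2-D1 stood at 953, 755 and 636 CPM against 621 and 537. These 3 of 12 class I genes did not overlap between the groups, a rate of non-overlap to be read against the 3.61% of all genes, and 11 of 12 had a fold above 1, against 47.3% of all genes. The list's median log2 fold change was 0.47, against -0.02 over all genes, and members share sequence, so reads may be split between them. H2-Q4 differed by 2.04 ± 0.50 and B2m by 0.77 ± 0.29 on the log2 scale (SE). The edgeR p was 0.0017 for H2-Q4 and 0.021 for B2m unadjusted, and neither passed after adjustment (edgeR adjusted p = 0.999 for both).

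Some single genes outside that list also lay apart. Vcam1, an adhesion molecule for leukocytes, stood at 23.9, 22.6 and 49.9 CPM in PFC DTA, against 6.23 and 12.7 in PFC CTRL (log2 1.85 ± 0.56). Prdm16, a transcription factor of arterial endothelium, stood at 47.8, 59.2 and 35.4 CPM against 22.8 and 15.3 (log2 1.47 ± 0.38). Igfbp3 lay lower, at 23.9, 27.97 and 6.56 CPM in PFC DTA and 51.9 and 71.2 CPM in PFC CTRL (log2 -1.57 ± 0.44). Vcam1, Prdm16 and Igfbp3 did not pass after adjustment (edgeR adjusted p = 0.999). Prdm16 passed without PFC CTRL 1 (edgeR adjusted p = 0.0406), as did H2-Q4 (edgeR adjusted p = 0.0465).

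Genes of the flow, glucocorticoid and dissociation lists did not pass the adjusted threshold either, and some lay apart between the genotypes. Klf2, the flow-induced factor of quiescent endothelium (chromosome 8, 72319033 to 72321656, plus strand), stood at 3105, 2411 and 2578 CPM in PFC DTA, against 6945 and 3279 in PFC CTRL. PFC CTRL 1 was far above the rest, and Klf2 passed only without PFC CTRL 2 (log2 -1.34; edgeR adjusted p = 0.0328). Tsc22d3, the glucocorticoid-induced leucine zipper, stood at 348, 534 and 373 CPM in PFC DTA, against 874 and 699.5 in PFC CTRL. Sgk1, a kinase induced by glucocorticoids, stood at 449, 596 and 382 CPM against 919.7 and 699.5. Klf2 was the only one of 13 flow response genes below both CTRL values, while Piezo1, a mechanosensitive channel, and Thbd, thrombomodulin, lay above both, and the list's median log2 fold change was -0.05. Of 12 glucocorticoid targets 4 lay below both CTRL values and 5 had a fold above 1, with a median of -0.03. Of 24 dissociation and immediate early genes 7 lay below both, Fos, Jun and Egr1 among them, 9 had a fold above 1, and the median was -0.16. Over all genes 11.1% lay below both CTRL values. The part of tissue handling in these values was not tested.

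The solute carrier, junction, efflux, Wnt and basement membrane lists held 5 genes that lay apart between the genotypes, where 3.61% of all genes lay above and 11.1% below both CTRL values. Slc2a1 stood at 1157, 1655 and 1021 CPM in PFC DTA, against 2562 and 1576 in PFC CTRL, and the groups overlapped (log2 -0.62 ± 0.32). Abcb1a overlapped as well (log2 0.34 ± 0.28). Of 21 solute carriers only Slc40a1, the iron exporter ferroportin, lay above both CTRL values, at 326, 289 and 384 CPM in PFC DTA against 237 and 267 in PFC CTRL. Of 16 junction genes, 2 did so, Pcdh12 among them, and none of 19 Wnt genes and none of 14 basement membrane genes lay apart in either direction. Of 6 efflux pumps, Abcg1 and Abcg2 lay below both CTRL values, though Abcg2 had a fitted log2 fold change of 0.01.

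**Figure D4:**
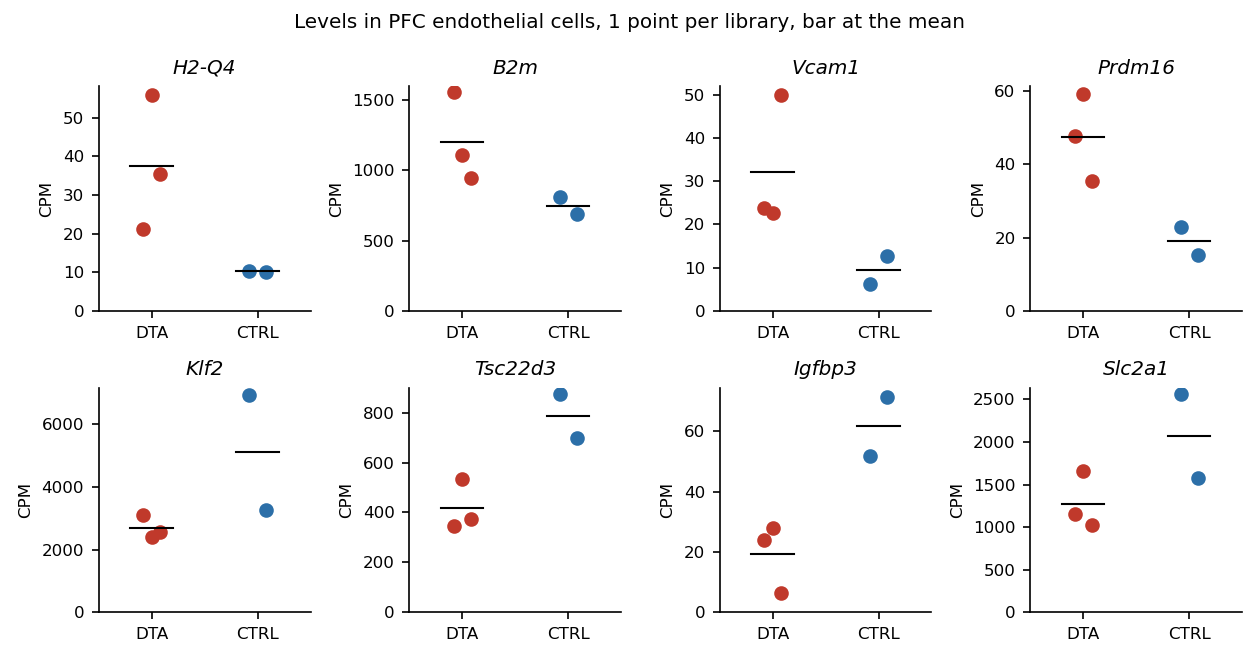
Levels in CPM of 8 genes in the endothelial cells of 3 PFC DTA and 2 PFC CTRL libraries, DTA on the left, 1 point per library and a bar at the mean. H2-Q4, B2m, Vcam1 and Prdm16 lie higher and Klf2, Tsc22d3 and Igfbp3 lower in DTA with no overlap, and Slc2a1 overlaps.

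In MC the same genes were read in 1 library per genotype, so there is no test, and the intervals cover counting error only. Several endothelial lists stood higher in MC DTA: 22 of 23 pan-endothelial genes had a ratio above 1 (median 1.29). So had 16 of 17 solute carriers (1.25) and 10 of 10 junction genes (1.28), against 1073 of 2419 genes in all (0.968). Other lists did not: 1 of 3 efflux pumps (0.973), 2 of 5 receptors of receptor-mediated transport (0.937) and 1 of 3 coagulation and fibrinolysis genes (0.986) had a ratio above 1. Of 8 basement membrane genes, 5 did (1.17). All 6 class I genes counted had a ratio above 1, with a median of 1.58. H2-Q4 stood at 40.6 CPM in MC DTA and 16.7 in MC CTRL, a ratio of 2.44 (95% exact interval 1.28–5.02). B2m stood at 1254 against 665 CPM (ratio 1.89, 1.70–2.09) and Prdm16 at 35.9 against 8.33 (ratio 4.31, 1.84–12.4). Vcam1 stood at 35.1 against 19.4 CPM, with an interval of 0.974–3.57 that includes no difference. Klf2 went the other way from PFC, at 2964 CPM in MC DTA and 2592 in MC CTRL (ratio 1.14, 1.08–1.21), Igfbp3 had a ratio of 1.09, and Tsc22d3 stood at 497 against 577 CPM (ratio 0.861, 0.760–0.977). A test of the genotype effect between areas (edgeR, interaction) called none of 9555 genes, and 91 had an unadjusted p under 0.05.

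Of 2419 genes with at least 50 counts in each MC library, 76 differed over 2-fold (3.14%), 7 higher (0.289%) and 69 lower (2.85%) in MC DTA. The 7 higher genes included Sox18, a factor of vessel growth, at 415 CPM in MC DTA and 135 in MC CTRL (ratio 3.08, 2.48–3.87). Rapgef4 stood at 317 against 117 CPM and the heat shock gene Hspa1a at 270.0 against 107. Among the lower genes were the neuronal genes Pcp4, at 76.5 CPM in MC DTA against 574 in MC CTRL, Camk2n1 at 103 against 525 and Chn1 at 42.1 against 215. The excitatory neuron list summed to 404 CPM in MC DTA and 1640 in MC CTRL, as given above, and 3 of 3 oligodendrocyte lineage genes counted were over 2-fold lower in MC DTA. The part of such RNA in the rest of the profile was not tested.

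No gene separated MC from PFC endothelium past the threshold: none of 8712 passed an adjusted p of 0.05 in edgeR or DESeq2 (0%). On counts simulated for this contrast the fit found 100 of 100 planted 4-fold changes but only 45 of 100 planted 2-fold changes. That simulation has the limits given for the genotype test. The unadjusted p was under 0.05 for 112 genes in edgeR (1.29%) and for 32 in DESeq2, and 5% of genes had no overlap between the 2 MC and 5 PFC libraries, 3.04% higher and 1.96% lower in MC. Stra6, a receptor for the retinol carrier in plasma (chromosome 9, 58063788 to 58153996, plus strand), stood at 30.4 and 23.6 CPM in MC DTA and MC CTRL. In PFC it stood at 77.0, 77.5 and 97.1 CPM in DTA and 78.9 and 62.3 in CTRL. Each MC value lay well below each PFC value, at -1.54 ± 0.28 on the log2 scale, with an unadjusted edgeR p of 0.00012 that did not pass adjustment over all genes. Stra6 passed only with no filter on low counts (edgeR adjusted p = 0.00364). Gkn3, an arterial marker, was lower in both MC libraries, at 25.8 and 16.7 CPM against 50.4, 49.5, 38.1, 35.3 and 56.0 in PFC. Cxcl12, a chemokine of arterial endothelium, lay higher, at 2240.2 and 1966 CPM in MC against 1422, 1923, 896, 1401 and 1050.5 in PFC.

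Among the lists of other cell types, red blood cell genes gave the highest sums in endothelial cells, and their counts sat in few of the cells. Of 1832 endothelial cells, 182 held at least 100 UMIs of the haemoglobin genes Hba-a1, Hba-a2, Hbb-bs and Hbb-bt, or 9.93%, 45 held 11 to 99 and 1605 held at most 10. Among 31153 other cells only 50 reached 100, and none of 524 pericyte-marked cells did. Cells with fewer than 501 genes are absent from these counts, and the part of that floor in the contrast was not tested. The 182 cells carried 98.5–99.8% of the endothelial haemoglobin of their library. The threshold was set after the values were seen, so the comparisons between high and low cells have no test.

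The share of haemoglobin-high cells was 12.5%, 12.1% and 19.3% in PFC DTA, against 7.27% and 7.23% in PFC CTRL. It was 10.9% in MC DTA and 6.03% in MC CTRL. In both areas DTA lay above CTRL, and in all other cells the share was 0.085–0.378%. The PFC difference was 7.38 percentage points, and it lay between 4.59 and 8.66 points under other thresholds, memberships and with single libraries left out. Under strict membership the groups overlapped, with 8.97% in PFC DTA 2 against 10.0% in PFC CTRL 1.

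**Figure D5:**
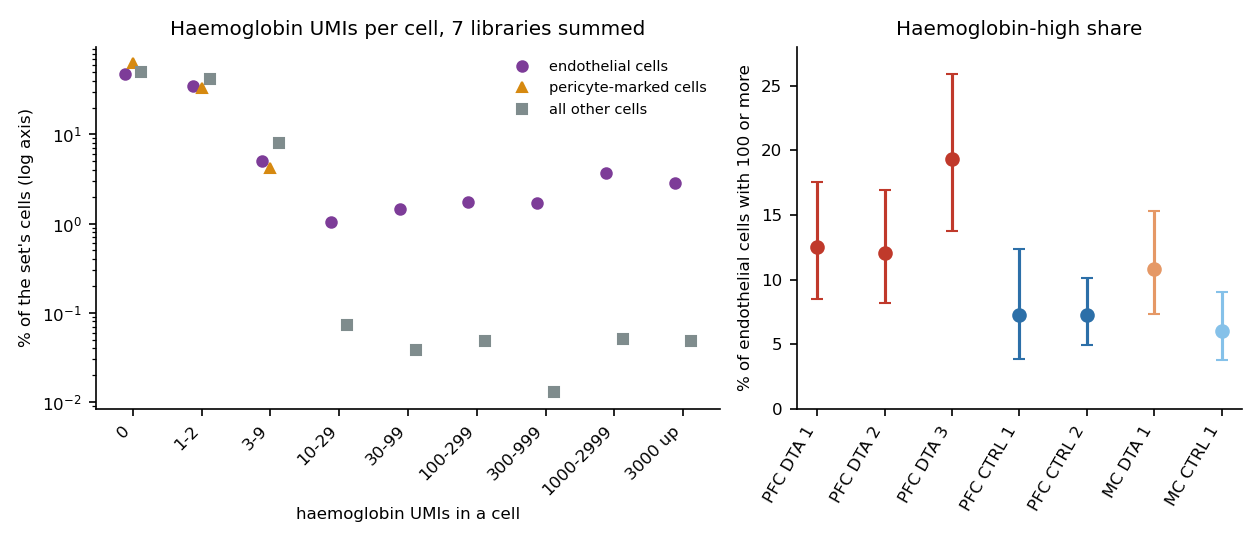
Haemoglobin UMIs per cell, as the percent of the cells of each set in each bin on a log axis with empty bins left out, and the share of endothelial cells with at least 100 haemoglobin UMIs in each library with exact 95% binomial intervals. The high share was 12.1–19.3% in PFC DTA and 7.23–7.27% in PFC CTRL.

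Endothelial genes outside the rule were read in haemoglobin-high cells with haemoglobin taken out of the total. Pecam1 averaged 556 ± 114 CPM in high cells and 579 ± 94.4 in low cells, and Abcb1a averaged 539 ± 144 against 521 ± 75.7 (SD, n = 7 each). Ly6a averaged 1562 against 1851 CPM and was higher in high cells in 1 of 7 libraries. The rule gene Cldn5, which both sets had to hold, averaged 6002 ± 1336 CPM against 6732 ± 1249 and was higher in high cells in 0 of 7 libraries. Pecam1 was higher in high cells in 2 of 7 libraries and Abcb1a in 4 of 7. The VEGF receptor genes went the other way from Cldn5. Flt1, a rule gene, averaged 2588 CPM against 2284 and was higher in 7 of 7, and Kdr averaged 650 against 527 and was higher in 6 of 7. High cells were also deeper in each library, with a median of 2726.5–9475 UMIs against 1211–3652, and without haemoglobin they still had 1503.5–5910.5. Scrublet, a doublet caller, marked 6 of the 182, and 65 of all 1832 endothelial cells. Of the 6, 5 were in PFC DTA 3, where the top scores were taken because the caller's threshold failed. It marked 0 endothelial cells in PFC DTA 2 and in MC DTA.

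More than globin came along. Alas2, which starts haem synthesis in red cell precursors (chromosome X, 150547375 to 150570638, plus strand), held 1351 UMIs in high cells and 2 in low cells, and it was seen in 128 of 182 high cells, or 70.3%. Bpgm, the red cell enzyme that makes 2,3-bisphosphoglycerate, averaged 729 ± 336 CPM against 51.3 ± 8.68, a ratio of 14.2. Fech, which puts iron into haem, averaged 329 ± 124 against 28.5 ± 10.96, and Slc25a37, the mitochondrial iron carrier, averaged 120.3 against 3.99. These genes were higher in high cells in 7 of 7 libraries.

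Of white blood cell genes, S100a8 and S100a9, which encode a pair of neutrophil proteins, averaged 72.2 and 66.7 CPM in high cells, against 62.3 and 59.4 in low cells. S100a8 was higher in high cells in only 2 of 7 libraries and S100a9 in 3 of 7. PFC DTA 2 had the highest values in high cells, at 296 and 218 CPM. Ptprc, the pan-leukocyte CD45 gene, had 0 UMIs in high cells and 9 in low cells, too few to compare. Of the classes above, 6 of 98 arterial-marked and 58 of 443 venous-marked cells were haemoglobin-high. The PFC gene count stayed at 0 without the haemoglobin-high cells.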

How the data were processed

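The authors deposited tables of UMI counts per gene and cell for 7 droplet libraries, and all values are whole numbers. Per the submitters' processing notes, Cell Ranger 3.0.2, Seurat and mm10 were used, with roles not given in the sources used here. Counts of endothelial, pericyte-marked and other cells were summed per library, since cells are not replicates. After filterByExpr (minimum 10 counts) and TMM, edgeR 4.0.16 gave robust quasi-likelihood tests with Benjamini-Hochberg adjustment over all genes tested; DESeq2 1.42.0 was an alternative. Contrasts of 2 cell sets had the library as a block. The SE printed beside an edgeR log2 fold change is its absolute value over the square root of its F statistic. Single values were compared by exact enumeration of the library labels. CPM divides by all UMIs of the cell set, and a UMI is counted at the 3' end of a transcript, so no level was divided by length. Intervals are exact binomial or Poisson at 95% and cover counting error only. Scrublet (scanpy 1.11.5) marked 65 endothelial cells as doublets, with the top scores taken in PFC DTA 3 where its threshold failed; they stayed in, and leaving them out was an alternative. Strict membership, the 1304 cells with no UMI of Slc17a7, C1qa or Gja1 and no mural gene at 2 UMIs, was another.

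Named genes were list members past the adjusted p, up to 6 a list by p, with at most 2 where none passed, and the largest folds over all genes, 6 or, for arterial against venous, 10 each way at 50 CPM or more. Where nothing passed, the 3 smallest p each way were taken. Other list members named for their role were chosen after their values were seen. Members, lists and tests were chosen with earlier results of these data known. Of 438 listed genes, 4 were not listed in the tables used here. Fits were tested on simulated data. Gene positions are those of GENCODE on mm10. Some genes that met these rules are not reported here.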

Additional observations from a re-analysis of the deposited data

How the results depend on the processing

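The PFC genotype count of 0 genes became 3 with no filter on low counts and ranged over 0–166 with single libraries left out. The area count of 0 became 10 with no filter. The arterial against venous count of 172 became 415 with no filter, 83 in DESeq2 and 67 under strict membership, and ranged over 90–181 with single libraries left out. The endothelial share difference in PFC changed sign to 0.6509 points among cells with at least 1000 UMIs, to 1.467 without PFC CTRL 1 and to 0.8324 without PFC DTA 3, and ranged over -2.7132 to 1.467 points with single libraries left out. The 76 genes past 2-fold in MC became 33 at 100 counts or more and 49 under strict membership. The cause was not tested, other than that stricter settings test fewer genes. Under the other alternatives run, these counts stayed within 1.5 times and the share difference kept its sign. Of the single genes named, 21 of 56 in the arterial against venous comparison, 22 of 26 in PFC genotype and 9 of 12 in area stayed on their side of the threshold under every alternative. Fold changes against all other cells moved by more than their standard error under at least 1 alternative for 24 of 24 genes, and against pericyte-marked cells for all but 4 of 19; no direction turned. Leaving out haemoglobin-high cells, the haemoglobin thresholds and the MC settings were chosen after seeing the data.

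Libraries of PFC DTA and CTRL share replicate numbers that the labels do not tie to a litter, batch or day. With the replicate number as a block, 0 genes passed in PFC, as without it. The deviations of same-numbered libraries from their group mean correlated at -0.045 for number 1 and -0.110 for number 2. With only 2 CTRL libraries their deviations are mirror images, and the crossed pairs gave 0.045 and 0.110. These values therefore cannot show whether same-numbered libraries share a litter, batch or day. The endothelial sums in PFC rest on 165 to 429 cells a library, which limits what can be seen in low genes.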
